A study of Mus musculus with 9 samples.

Results

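The genes described here encode secreted and membrane-bound metalloproteases that cut the extracellular matrix, and the inhibitors that restrain them. They were chosen by name, as 9 genes of the 17232 listed in the table: *Adamts1*, *Adamts4*, *Adamts5* and *Adamts9*, the matrix metalloproteases *Mmp2* and *Mmp14*, and the tissue inhibitors of metalloproteases *Timp1*, *Timp2* and *Timp3*. All 9 passed the filter on low values of 0.1 RPKM (reads scaled to gene length and library size) in at least 3 libraries. Endothelial cells (ECs) were sorted from the bone marrow (BM) of Nestin-GFP mice, whose GFP transgene marks arteries brightly, and were sequenced as 3 libraries in each of 3 groups. Arterial ECs (AECs) were CD45-negative, CD31-positive and PDPN-negative with high Sca-1, and were split into Nestin-GFPbright AECs and Nestin-GFPdim AECs. Sinusoidal ECs (SECs) were CD45-negative, CD31-positive and PDPN-positive with low Sca-1. All 9 libraries came from mice that carried the transgene and received no treatment that the labels name, and the labels give neither age nor sex. The libraries of each group are numbered 1, 3 and 4, and the labels do not say whether these are separate animals. The study's methods take n as a number of mice in general, without naming the RNA-seq libraries, so p values are read only against the spread between these libraries.

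The ADAMTS proteases are secreted enzymes with thrombospondin repeats that cut proteoglycans such as aggrecan and versican. MMP2 degrades type IV collagen of basement membranes and is made as an inactive precursor, which MMP14 at the cell surface activates in a complex that also contains TIMP2. The TIMPs block the active site of these enzymes, and TIMP3 stays bound to the matrix and inhibits ADAMTS proteases as well as MMPs. Around vessels these proteins are known for remodelling of the matrix during sprouting, inflammation and repair.

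Stretches upstream of the start site were taken for the 6 genes that matched the RefSeq promoter table of GRCm38.p6: *Adamts1*, *Adamts9*, *Mmp14*, *Timp1*, *Timp2* and *Timp3*. *Adamts4*, *Adamts5* and *Mmp2* were not matched. For each kind of protein, 1 is shown, 5′ to 3′ on the strand of the gene, because it lets the promoters of an ADAMTS protease, a membrane MMP and an inhibitor be read side by side. The *Adamts1* stretch lies on the minus strand at chr16:85803114-85803363, the *Mmp14* stretch on the plus strand at chr14:54431348-54431597 and the *Timp1* stretch on the plus strand at chrX:20869916-20870165. Each spans 250 bases and ends at the base before the start site, and capitals mark GC boxes (GGGCGG, or CCGCCC on the opposite strand) and a TATA box (TATAAA).
Adamts1: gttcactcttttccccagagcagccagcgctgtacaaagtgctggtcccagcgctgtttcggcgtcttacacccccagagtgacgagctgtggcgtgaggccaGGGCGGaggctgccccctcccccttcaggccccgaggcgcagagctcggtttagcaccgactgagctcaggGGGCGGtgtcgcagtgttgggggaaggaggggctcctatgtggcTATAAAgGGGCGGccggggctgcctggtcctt
Mmp14: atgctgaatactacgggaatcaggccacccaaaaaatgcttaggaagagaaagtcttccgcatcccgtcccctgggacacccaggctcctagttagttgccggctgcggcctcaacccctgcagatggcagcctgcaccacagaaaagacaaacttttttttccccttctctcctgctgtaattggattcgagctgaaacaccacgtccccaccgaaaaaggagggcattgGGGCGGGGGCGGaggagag
Timp1: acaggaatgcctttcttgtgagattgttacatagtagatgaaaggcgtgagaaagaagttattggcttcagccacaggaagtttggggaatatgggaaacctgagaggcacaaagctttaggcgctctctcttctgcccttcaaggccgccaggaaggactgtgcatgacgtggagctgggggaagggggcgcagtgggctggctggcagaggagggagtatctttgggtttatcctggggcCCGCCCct

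A GC box, the sequence bound by Sp1-type factors, was found in the stretches of all 6 matched genes and in 32.7% of the 32851 mouse promoters searched over the same 250 bases. The *Adamts1* stretch held 3 GC boxes and was the only one of the 6 with the letters TATAAA, which were found in 12.4% of all promoters. That TATA box began 32 bases before the start site and was followed by a GC box after 1 base. Both GC boxes of *Mmp14* stood directly next to each other, within 19 bases of the start site. None of the 6 stretches held AP-1 (TGANTCA), CRE (TGACGTCA), SoxF (ACAATNG) or ETS (ACCGGAAGT) letters, a CArG box or an NF-kappaB motif, which were found in 6.75%, 1.55%, 6.91%, 0.804%, 1.47% and 3.90% of all promoters. Both strands were searched for all 8 motifs, and none of the matches shown overlap. These matches describe letters and not binding.

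Arterial and sinusoidal markers differed between AECs and SECs in the direction of the labels, with differences between libraries that bear on the results below. Of 10 arterial markers, 6 were higher in AECs than in SECs and 0 lower. Of 10 sinusoidal markers 0 were higher and 8 lower, beside 4.93% of all tested genes called. Some markers of both lists were reported by the study from these same libraries, so the counts are no independent check of the sort. The summed RPKM of 10 pan-endothelial markers was 559, 2292 and 2002 in Nestin-GFPbright AEC libraries 1, 3 and 4. It was 1148, 3207 and 2506 in Nestin-GFPdim AECs and 1548, 2746 and 1770 in SECs, so library 1 was the lowest of each group. Depth was 13896190 to 73475550 reads per library over the genes of the table. The summed RPKM of 10 neutrophil markers was 120900 to 295500 in the libraries numbered 1 and 140 to 55730 in the other libraries, although the gate was CD45-negative. The sum of 9 listed macrophage markers was 8100 to 16060 in the libraries numbered 1 and 670 to 6012 in the others. That of 10 B and plasma cell markers was 3650 to 18120 and 42.2 to 3040. The sum of 5 listed erythroid markers was 13780 in Nestin-GFPdim AEC library 4 and 9.07 to 3593 in the others. The summed RPKM of the 10 sinusoidal markers was 1015 in Nestin-GFPdim AEC library 3, 84.8 to 530 in the other AEC libraries and 2464 to 4312 in SECs. In bulk samples, fewer cells of a type and less RNA per cell cannot be told apart.

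**Figure D1:**
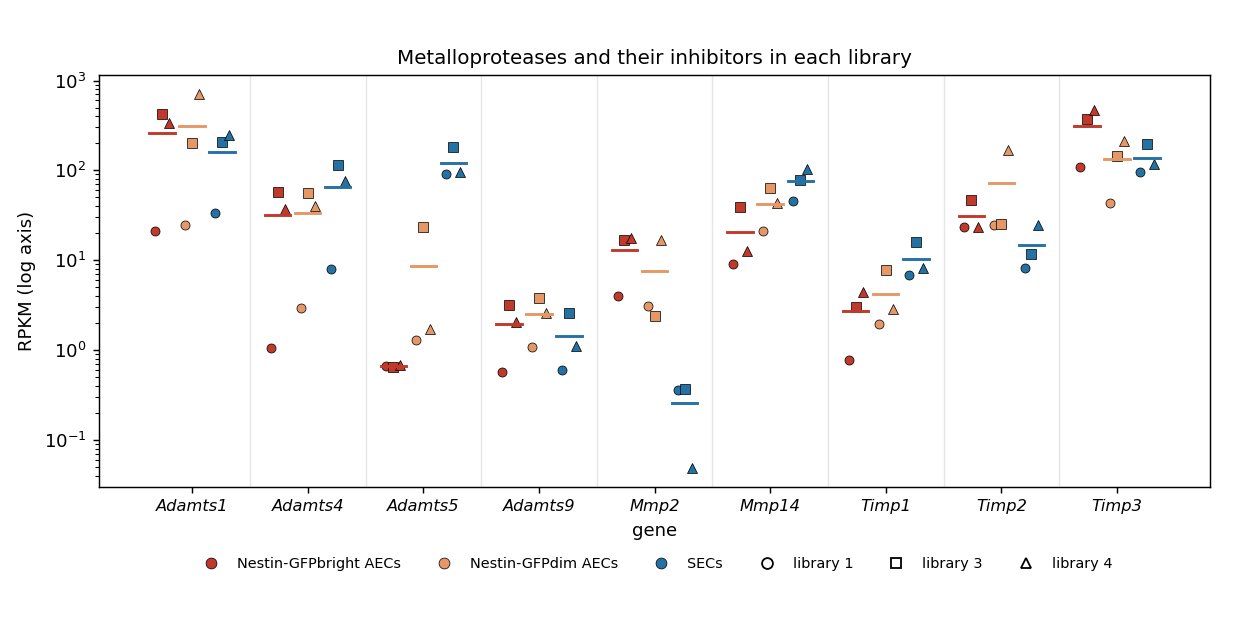
RPKM of the 9 genes in each of the 9 libraries, on a log axis. Colours give the cell type, symbols the number of the library, and bars the mean of 3 libraries. *Adamts5* lies at 90.2 or above in SECs and at 23.2 or below in AECs, and *Mmp2* lies at 2.40 or above in AECs and at 0.364 or below in SECs.

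Of the 9 genes, *Adamts5* was lower and *Mmp2* higher in AECs than in SECs, and the other 7 did not pass the test. Over all 16364 tested genes, 4.93% were called in this comparison, and the libraries of the 2 cell types did not overlap for 10.4%, as was the case for 2 of the 9. The median difference of the 9 genes was 0.32 on the log2(RPKM + 1) scale, with a range from -5.30 to 2.79. *Adamts5* fell also in Nestin-GFPdim AECs alone, where it was the 1 gene called of 9, against 1.95% of all tested genes. In Nestin-GFPbright AECs, *Adamts5* and *Mmp2* were both called, against 4.58% of all tested genes. Between Nestin-GFPbright and Nestin-GFPdim AECs, limma called 0 of the 9 and 0% of all tested genes, of which 803 had an unadjusted p under 0.05, none of them among the 9. Voom on the recovered reads called 0 of the 9 as well. On the scale of RPKM, which is per length, *Adamts1* and *Timp3* had the highest means of the 9 over all libraries, at 246 and 195 RPKM, and *Adamts9* the lowest, at 1.95 RPKM.

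**Figure D2:**
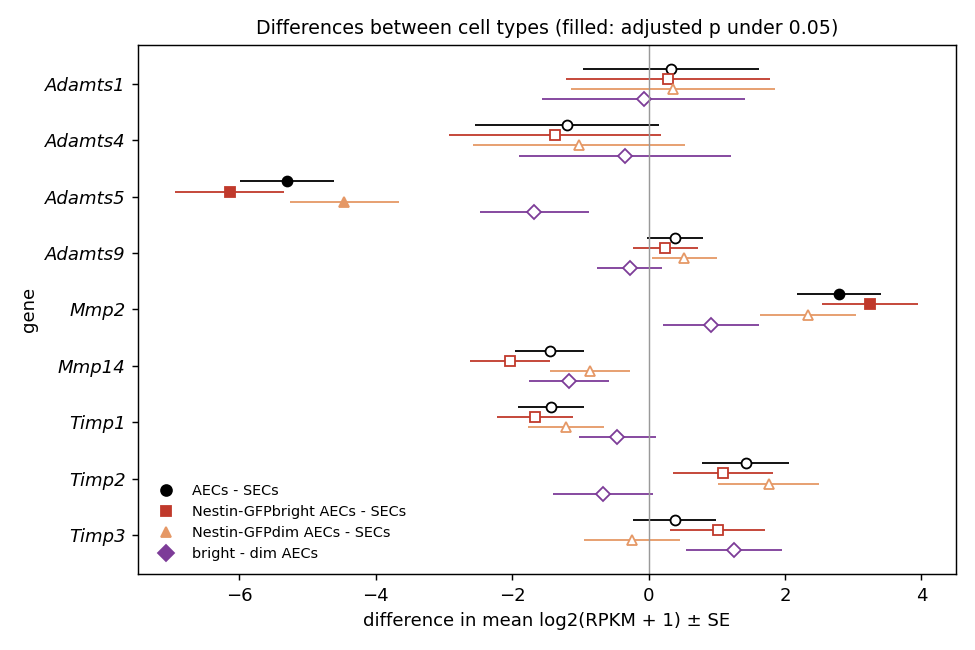
Differences in mean log2(RPKM + 1) between cell types for the 9 genes, with the standard error from limma as bars. Filled symbols have an adjusted p under 0.05. *Adamts5* (-5.30) and *Mmp2* (2.79) are filled for AECs against SECs, and no symbol is filled for Nestin-GFPbright against Nestin-GFPdim AECs.

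*Adamts5* (ENSMUSG00000022894), which encodes an aggrecanase, lies on the minus strand at chr16:85858170-85901125. Its level was 90.2, 180 and 96.3 RPKM in SEC libraries 1, 3 and 4. In Nestin-GFPbright AECs it was 0.660, 0.643 and 0.687 RPKM. In Nestin-GFPdim AECs it was 1.29, 23.2 and 1.72 RPKM. SECs were above all AEC libraries, and within AECs the bright libraries lay close together below all dim ones, with dim library 3 far above the other two. The mean was 122 ± 50.4 RPKM (SD, n = 3) in SECs and 4.69 ± 9.06 RPKM (SD, n = 6) in AECs, 26.1-fold higher in SECs. The difference of AECs from SECs was -5.30 ± 0.69 (SE) on the log2(RPKM + 1) scale (limma, adjusted p = 0.00423), and the exact two-sided permutation test over 84 splits gave p = 0.0119, the smallest it can give. Nestin-GFPbright AECs differed from SECs by -6.14 (limma, adjusted p = 0.00475) and Nestin-GFPdim AECs by -4.46 (limma, adjusted p = 0.0315). The difference of -1.68 between bright and dim AECs did not pass the test (limma, adjusted p = 0.998), so the order of SECs above dim above bright AECs was resolved only at its first step.

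The dim library that stood apart for *Adamts5* also stood apart for genes of sinusoids. As a share of the SEC mean, its *Adamts5* level was 18.9%, against 0.525% to 1.41% in the other AEC libraries. In the same library *Stab2*, a scavenger receptor of sinusoidal ECs, was at 15.7%, and 0.126% to 4.25% in the other AEC libraries. *Sele*, the adhesion molecule E-selectin, was at 35.3% there and 0.279% to 6.69% elsewhere in AECs. *Dnase1l3*, a secreted nuclease, was at 32.4% there and 0.154% to 11.9% elsewhere. The part of sinusoidal RNA in this *Adamts5* level was not tested. Without that library the difference of AECs from SECs was -5.85 (limma, adjusted p = 2.25e-04), and that of Nestin-GFPdim AECs from SECs -5.55 (limma, adjusted p = 0.00212). The call in Nestin-GFPdim AECs was lost with any 1 of Nestin-GFPdim AEC library 1 or 4, Nestin-GFPbright AEC library 3 or 4 or SEC library 1, 3 or 4 left out, at adjusted p up to 0.144.

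**Figure D3:**
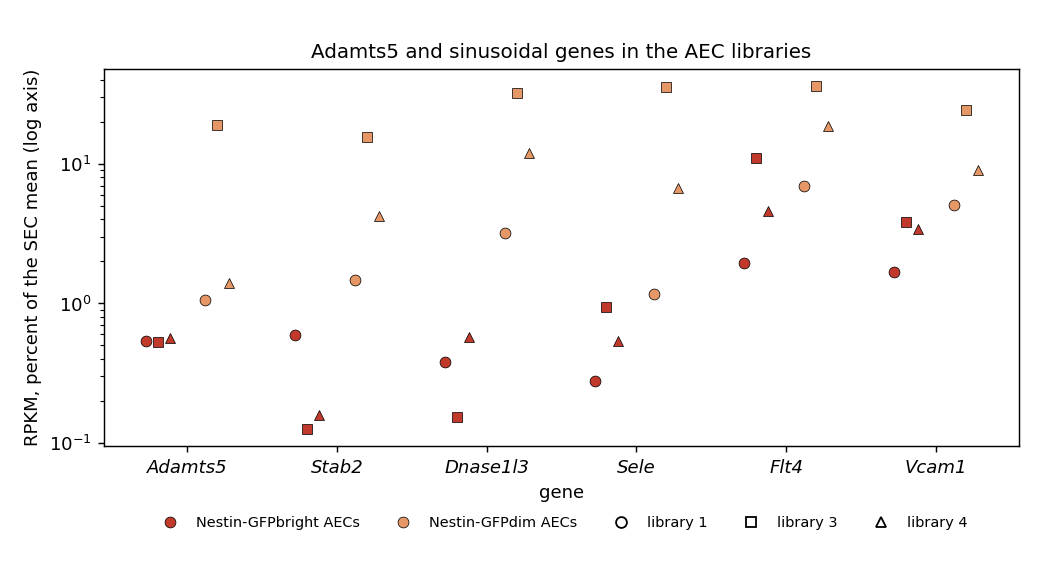
RPKM of *Adamts5* and 5 sinusoidal marker genes in the 6 AEC libraries, as a percentage of the SEC mean on a log axis. Colours give the AEC fraction and symbols the number of the library. Nestin-GFPdim AEC library 3 is the highest for each of the 6 genes, from 15.7% for *Stab2* to 36.3% for *Flt4*.

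The 3 genes most like *Adamts5* over the 9 libraries, among 5702 genes searched, were *Clca1*, *Snx8* and *Tbc1d4*, with Pearson correlations of log2(RPKM + 1) of 0.997, 0.993 and 0.993. The 9 libraries share the contrast between cell types and the transcripts of other cells, so these values are a description. *Clca1* was at 170, 380 and 213 RPKM in SEC libraries 1, 3 and 4 and at 54.8 RPKM in Nestin-GFPdim AEC library 3. In the other AEC libraries it ranged from 2.80 to 8.99 RPKM, a pattern that its choice by correlation with *Adamts5* builds in. *Adamts5* and *Adamts1* are neighbours on chromosome 16, 55056 bases apart on the same strand with 0 listed genes between them, and over the 9 libraries their correlation was -0.01.

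*Adamts1* (chr16:85793827-85803113, minus strand) encodes a protease that cuts versican and aggrecan. Its level was 21.1, 428 and 336 RPKM in Nestin-GFPbright AEC libraries 1, 3 and 4. In Nestin-GFPdim AECs it was 24.6, 202 and 715 RPKM, and in SECs 33.2, 206 and 248 RPKM. The cell types overlapped, while the library numbered 1 was the lowest of each group and the other 6 libraries lay at 202 RPKM or above. The means were 288 ± 266 RPKM (SD, n = 6) in AECs and 162 ± 114 RPKM (SD, n = 3) in SECs, and the difference of 0.32 ± 1.29 (SE) on the log2(RPKM + 1) scale did not pass the test (limma, adjusted p = 0.969).

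*Adamts4* (chr1:171250421-171260637, plus strand) encodes a second aggrecanase. It was at 1.07, 57.3 and 37.1 RPKM in Nestin-GFPbright AEC libraries 1, 3 and 4. It was at 2.94, 56.4 and 40.5 RPKM in Nestin-GFPdim AECs and at 7.91, 115 and 75.7 RPKM in SECs. As with *Adamts1*, the libraries numbered 1 were the lowest of their groups, at 7.91 RPKM or below, against 37.1 RPKM or above in the other 6. Within each library number the SEC library lay above both AEC libraries, while over all libraries the difference of -1.20 did not pass the test (limma, adjusted p = 0.863).

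The mean of libraries 3 and 4 over library 1 was 18.1-fold, 18.7-fold and 6.82-fold for *Adamts1* in the bright, dim and sinusoidal groups, and 44.3-fold, 16.5-fold and 12.0-fold for *Adamts4*. Library 1 was also the lowest of each group for *Adamts9*, *Mmp14*, *Timp1* and *Timp3*, with smaller ratios of 1.63-fold to 4.85-fold, so this is not particular to *Adamts1* and *Adamts4*. The genes most like *Adamts1* were *Ptk2* (r = 0.969), *Jun* (r = 0.967) and *Cyr61* (r = 0.966), and those most like *Adamts4* were *Adm* (r = 0.988), *Gem* (r = 0.98) and *Epha2* (r = 0.969). *Jun* and *Cyr61* are known as immediate early genes, which cells induce within minutes of a stimulus. *Jun* was at 27.1 to 34.3 RPKM in the libraries numbered 1 and at 195 to 694 RPKM in the others, without overlap. Its choice by correlation with *Adamts1* favours such a separation, so this is a description. The same libraries numbered 1 held the most neutrophil transcripts and the lowest pan-endothelial sum of each group (above). The part of neutrophil RNA, of endothelial content or of cell handling in these levels was not tested.

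**Figure D4:**
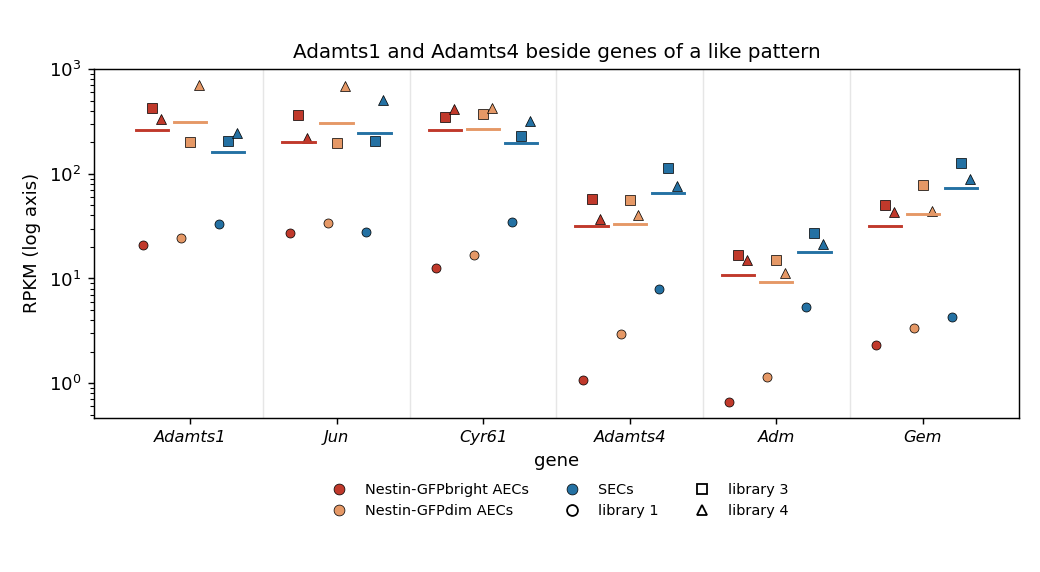
RPKM of *Adamts1*, *Adamts4* and 4 genes chosen for a like pattern in each library, on a log axis. Colours give the cell type, symbols the number of the library and bars the mean of 3 libraries. For each gene the circles, which are the libraries numbered 1, lie below the squares and triangles of the same cell type, with *Adamts1* at 33.2 RPKM or below in circles and 202 RPKM or above elsewhere.

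*Adamts9* (chr6:92772699-92943492, minus strand), whose product also cuts versican, was low in all cell types. It was at 0.576, 3.20 and 2.05 RPKM in Nestin-GFPbright AECs, at 1.09, 3.81 and 2.56 RPKM in Nestin-GFPdim AECs and at 0.603, 2.56 and 1.12 RPKM in SECs, in libraries 1, 3 and 4. The groups overlapped, and the difference of AECs from SECs was 0.39 (limma, adjusted p = 0.850). *Cd93*, an endothelial glycoprotein, was among the 3 genes most like it (r = 0.967), beside *4930503L19Rik* (r = 0.979) and *Ppfibp1* (r = 0.963). Of 3 listed genes on the opposite strand that overlap *Adamts9*, the highest was *9530026P05Rik*, at 0.235 to 2.38 RPKM. With a kit that does not mark strand, reads from bases that genes share cannot be told apart.

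*Mmp2* (ENSMUSG00000031740), gelatinase A, lies on the plus strand at chr8:92827328-92853417. Its level was 4.04, 16.7 and 17.7 RPKM in Nestin-GFPbright AEC libraries 1, 3 and 4. In Nestin-GFPdim AECs it was 3.11, 2.40 and 16.9 RPKM, and in SECs 0.363, 0.364 and 0.0486 RPKM. All 6 AEC libraries lay above all SEC libraries, and within AECs both fractions overlapped, with dim library 4 as high as the higher bright libraries. The mean was 10.2 ± 7.66 RPKM (SD, n = 6) in AECs and 0.259 ± 0.182 RPKM (SD, n = 3) in SECs, a ratio of 39.3, and the lowest library held 7 reads of the gene. The difference on the log2(RPKM + 1) scale, which understates the change of a gene this low in SECs, was 2.79 ± 0.61 (SE; limma, adjusted p = 0.0371), with p = 0.0238 in the exact two-sided permutation test. Nestin-GFPbright AECs differed from SECs by 3.25 (limma, adjusted p = 0.0376), whereas 2.34 in Nestin-GFPdim AECs did not pass (limma, adjusted p = 0.184). Bright and dim AECs differed by 0.91 without passing the test (limma, adjusted p = 0.998), so they are not shown to differ in their distance from SECs. The call in AECs was lost without Nestin-GFPbright AEC library 3 or 4 or any 1 SEC library, at adjusted p of 0.0839 to 0.174, and by voom (adjusted p = 0.087). The call in Nestin-GFPbright AECs was lost without the same libraries, at adjusted p of 0.0975 to 0.15, and by voom (adjusted p = 0.0825).

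Mural and stromal cells also make MMP2, and their markers differed in both directions between AECs and SECs. *Rgs5*, a regulator of G-protein signalling in pericytes, was called higher in AECs than in SECs and was at 11.9, 37.7 and 86.9 RPKM in Nestin-GFPbright AEC libraries 1, 3 and 4. In Nestin-GFPdim AEC library 4 it was at 0.571 RPKM. *Acta2* and *Myl9*, of the contractile apparatus of smooth muscle, were also called higher in AECs, at 8.65 to 143 RPKM and 3.61 to 89.0 RPKM in AECs against 0.0279 to 5.37 RPKM and 0.423 to 1.15 RPKM in SECs. Of the 12 mural markers, 3 were higher and 2 lower in AECs, beside 4.93% of all tested genes called in this comparison. The 3 higher ones are those named above, and the values of the 2 lower ones are not given here. None of the 12 was at 0 in every library, and their summed level was 67.4 to 411 RPKM in AECs and 428 to 841 RPKM in SECs. Against SECs, 5 of the 12 were higher and 2 lower in Nestin-GFPbright AECs, beside 4.58% of all tested genes called there. In Nestin-GFPdim AECs, 0 of the 12 were higher and 1 lower, beside 1.95% of all tested genes. Of 10 marrow stroma markers, 3 were higher and 1 lower in AECs, with a summed level of 143 to 1069 RPKM in AECs and 66.0 to 118 RPKM in SECs. The 3 that were higher, *Cxcl12*, *Kitl* and *Fbln5*, make up most of that sum. *Cxcl12* and *Kitl* were also reported by the study as niche factors with higher expression in AECs than in SECs. *Lepr*, the receptor that marks marrow stroma, was at 1.64 to 12.1 RPKM in AECs and 8.03 to 15.6 RPKM in SECs. The fibroblast collagen *Col1a1* was at 1.35 RPKM or below in all libraries. It is 1 of 8 listed osteoblast and fibroblast markers, whose summed level was 2.29 to 27.6 RPKM in AECs and 14.7 to 24.6 RPKM in SECs. The part of mural or stromal RNA in the *Mmp2* level was not tested. The genes most like *Mmp2* were *Plek2* (r = 0.992), *Arhgef28* (r = 0.990) and *Cp* (r = 0.989), the last of which encodes the copper-binding ferroxidase ceruloplasmin.

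*Mmp14* (chr14:54431604-54441258, plus strand) encodes the membrane-anchored protease that activates pro-MMP2. It was at 9.12, 39.4 and 12.5 RPKM in Nestin-GFPbright AEC libraries 1, 3 and 4, at 21.3, 63.0 and 43.3 RPKM in Nestin-GFPdim AECs and at 45.6, 77.7 and 103 RPKM in SECs. All SEC libraries lay above all bright libraries, while the highest dim library reached into the range of SECs. The mean was 31.5 ± 20.8 RPKM (SD, n = 6) in AECs and 75.3 ± 28.5 RPKM (SD, n = 3) in SECs. The difference of -1.45 did not pass the test (limma, adjusted p = 0.199), nor did -2.03 in Nestin-GFPbright AECs (limma, adjusted p = 0.104), and the exact permutation test gave p = 0.0714. Without Nestin-GFPbright AEC library 3, the difference of Nestin-GFPbright AECs from SECs was -2.63 and passed (limma, adjusted p = 0.0458). With limma weights per library, *Mmp14* was called in AECs (-1.56, adjusted p = 0.0465) and in Nestin-GFPbright AECs (-2.27, adjusted p = 0.014). Its means followed the order SECs, dim AECs, bright AECs, of which no neighbouring pair differed beyond the spread by this test. *Mmp2*, its substrate, stood in the opposite order of means, at 0.259, 7.48 and 12.8 RPKM. *Npr1*, the receptor of atrial natriuretic peptide, followed *Mmp14* most closely (r = 0.995), and then *Kctd17* (r = 0.976) and *Plekha3* (r = 0.973).

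Among the inhibitors, *Timp3* was the most abundant in every library. It made up 55.1% to 94.4% of the summed RPKM of the 3 *Timp* genes. *Timp3* (chr10:86300372-86349506, plus strand) was at 108, 370 and 466 RPKM in Nestin-GFPbright AEC libraries 1, 3 and 4. It was at 43.7, 146 and 210 RPKM in Nestin-GFPdim AECs and at 96.7, 198 and 118 RPKM in SECs. The groups overlapped, with the 2 highest values in bright libraries. AECs differed from SECs by 0.38 (limma, adjusted p = 0.920) and bright from dim AECs by 1.25 (limma, adjusted p = 0.998). The gene lies within *Syn3* on the opposite strand, which was at 0.336 RPKM or below. *Tmod3* (r = 0.962), *Ppp6r3* (r = 0.960) and *Mat2a* (r = 0.955) were most like it.

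*Timp2* (chr11:118301069-118355740, minus strand), the inhibitor that also bridges MMP14 and pro-MMP2, was at 23.6, 47.2 and 23.2 RPKM in Nestin-GFPbright AEC libraries 1, 3 and 4. It was at 24.8, 25.3 and 168 RPKM in Nestin-GFPdim AECs and at 8.27, 11.6 and 24.4 RPKM in SECs. Of the AEC libraries, dim library 4 stood far above the other 5, and the highest SEC library reached into their range. The difference of AECs from SECs of 1.43 did not pass the test (limma, adjusted p = 0.353). *Sh2b3* (r = 0.978), *Trim47* (r = 0.977) and *Klf2* (r = 0.977) were most like it, the last of which encodes a transcription factor that ECs raise under laminar flow.

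*Timp1* (chrX:20870166-20874735, plus strand), an inhibitor that is weak against membrane MMPs, was the least abundant of the 3 in every library except SEC library 3. It was at 0.768, 3.02 and 4.44 RPKM in Nestin-GFPbright AEC libraries 1, 3 and 4, at 1.93, 7.86 and 2.85 RPKM in Nestin-GFPdim AECs and at 6.87, 15.9 and 8.23 RPKM in SECs. Only dim library 3 reached into the range of SECs, and this was the library with the most sinusoidal transcripts among AECs. The difference of -1.44 did not pass the test (limma, adjusted p = 0.177), although the exact permutation test of this gene alone, without adjustment over genes, gave p = 0.0476. *Syn1*, which contains *Timp1* on the opposite strand, was at 0.537 RPKM or below. *Btbd3* (r = 0.990), *Hsd3b7* (r = 0.987) and *Cyb5r1* (r = 0.986) were most like it.

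Over the 9 libraries, *Adamts1* and *Adamts4* varied together (r = 0.870), as did *Adamts5* with *Timp1* (r = 0.867) and with *Mmp14* (r = 0.783), while *Adamts5* and *Mmp2* varied in opposite ways (r = -0.876). These correlations hold the difference between cell types and that between library numbers, and are given as a description. The summed RPKM of the 6 proteases was 36.5 to 820 in AECs and 178 to 581 in SECs. *Adamts1* took up 45.2% to 87.2% of that sum in AECs and 18.7% to 47.3% in SECs.

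The rest of both families was mostly low or did not differ. Of 23 *Mmp* genes, 15 were listed and 12 tested, of which 1 was higher in AECs (*Mmp2*) and 0 lower, with a median difference of 0.30 against 0.03 over all tested genes. Over all tested genes, 4.93% were called in this comparison, so 1 called gene in a list this short is not read as a result about the list. *Mmp8* and *Mmp9*, proteases stored in neutrophil granules, ranged from 0.90 to 1669 RPKM and from 1.18 to 1266 RPKM, highest in the libraries numbered 1, where neutrophil markers were also highest. Of 19 *Adamts* genes, 14 were listed and 12 tested, of which 0 were higher and 1 lower (*Adamts5*), with a median of -0.10. Of 6 *Adamts*-like genes, all tested, 1 was lower. This was *Papln*, which encodes papilin, a matrix glycoprotein related to the ADAMTS proteases. It was at 8.0, 8.67 and 7.44 RPKM in SECs and at 0.241 to 2.27 RPKM in AECs, a difference of -2.16 ± 0.35 (SE; limma, adjusted p = 0.0101). It missed the threshold without SEC library 3 or 4 (limma, adjusted p = 0.0601 and 0.0559).

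Of the 6 metalloprotease inhibitors, 5 were tested, and beside 4.93% of all tested genes called, 1 was higher in AECs. That gene, *Timp4*, is the fourth TIMP and is not among the 9. It was at 2.23, 34.4 and 86.8 RPKM in Nestin-GFPbright AECs, at 17.5, 70.9 and 95.6 RPKM in Nestin-GFPdim AECs and at 0.131, 0.166 and 0.00479 RPKM in SECs, where the last value stands for 0 reads. AECs and SECs did not overlap, and the difference was 4.91 ± 0.96 (SE; limma, adjusted p = 0.0236). The call was lost with Nestin-GFPbright AEC library 3, Nestin-GFPdim AEC library 4 or any 1 SEC library left out, at adjusted p of 0.0559 to 0.117, and by voom (adjusted p = 0.206). Each fraction against SECs gave adjusted p = 0.0714 in Nestin-GFPbright AECs, which did not pass, and 0.0472 in Nestin-GFPdim AECs. With a pseudocount of 0.1 RPKM the difference was 7.37. Of 9 *Adam* genes tested, which encode membrane-bound relatives, *Adam9* was lower in AECs (-1.89; limma, adjusted p = 0.0472), at 6.57 to 37.0 RPKM against 42.6 to 87.6 RPKM in SECs. That call was lost with any library left out other than Nestin-GFPbright AEC library 3 or Nestin-GFPdim AEC library 3, at adjusted p of 0.0506 to 0.241.

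Of 9 genes of protease activation and plasmin, 2 were higher in AECs and 0 lower, beside 4.93% of all tested genes called. *Plat*, tissue plasminogen activator, was at 9.70 to 112 RPKM in AECs and 0.0833 to 1.97 RPKM in SECs, a difference of 4.39 (limma, adjusted p = 0.00922). *Pcsk5*, a proprotein convertase, was at 1.41 to 31.5 RPKM in AECs and 0.0179 to 0.0649 RPKM in SECs, a difference of 3.40 (limma, adjusted p = 0.0390). *Plat* missed the threshold without SEC library 4 (adjusted p = 0.0525), and *Pcsk5* without Nestin-GFPbright AEC library 3 or 4 or any 1 SEC library (adjusted p of 0.0862 to 0.166). By voom neither was called (adjusted p = 0.0579 and 0.085), and with a pseudocount of 0.1 RPKM the difference of *Pcsk5* was 6.03. Of 6 genes of clearance and binding partners, *Cav1*, the coat protein of caveolae, was higher in AECs, at 218 to 1119 RPKM against 2.07 to 5.79 RPKM (6.75; limma, adjusted p = 9.67e-04). *Lrp1*, the endocytic receptor for protease complexes, was at 0.0705 to 0.689 RPKM in all libraries.

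Of 10 matrix genes that these proteases can cut or that bind their substrates, 7 were listed and 6 tested. Of these, 1 was higher in AECs and 2 lower, beside 4.93% of all tested genes called, with a median of -1.08. *Nid2*, a linker protein of basement membranes, was higher in AECs, at 8.99 to 71.6 RPKM against 1.93 to 4.39 RPKM (3.03; limma, adjusted p = 0.0306). *Bgn*, the small proteoglycan biglycan, was lower, at 5.0 to 71.5 RPKM against 101 to 180 RPKM (-2.49; limma, adjusted p = 0.0210). *Bcan*, the proteoglycan brevican, was lower as well, at 0.487 RPKM or below in AECs, with 0 reads in some of the libraries, and 1.25 to 2.09 RPKM in SECs (-1.27; limma, adjusted p = 0.00391). The pseudocount of 1 RPKM understates the change of a gene this low, and with 0.1 RPKM the difference of *Bcan* was -3.50. With any 1 SEC library left out, *Bgn* (adjusted p of 0.0594 to 0.119) and *Nid2* (0.103 to 0.161) missed the threshold, as did *Nid2* without Nestin-GFPbright AEC library 4 or Nestin-GFPdim AEC library 3 or 4 (0.054 to 0.0769). None of the genes in these 8 lists was called between Nestin-GFPbright and Nestin-GFPdim AECs.

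**Figure D5:**
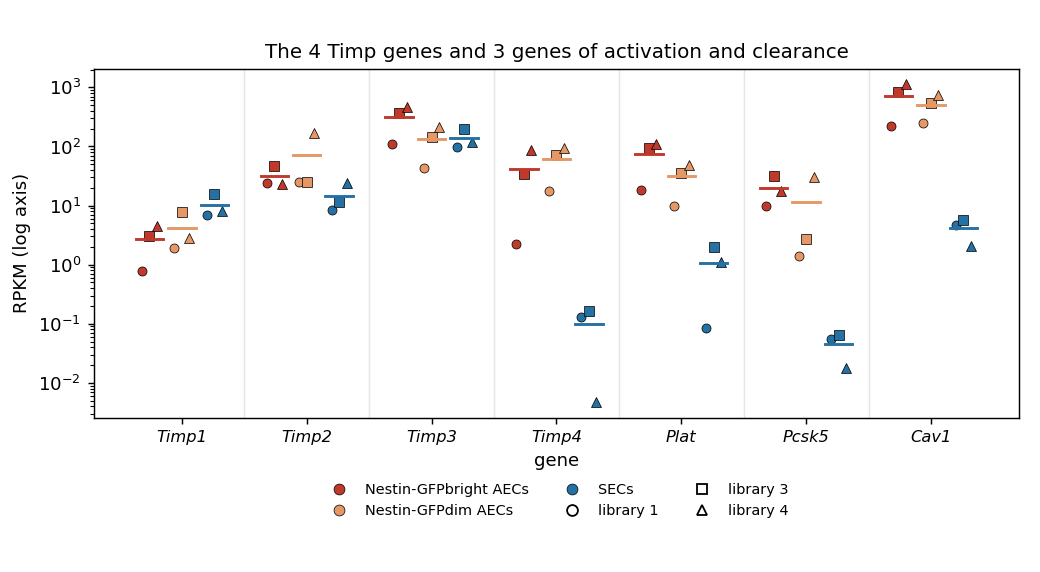
RPKM of the 4 *Timp* genes, *Plat*, *Pcsk5* and *Cav1* in each library, on a log axis, with colours for cell types, symbols for the number of the library and bars for the mean of 3 libraries. *Timp4*, *Plat*, *Pcsk5* and *Cav1* lie higher in all 6 AEC libraries than in all SEC libraries, whereas *Timp1*, *Timp2* and *Timp3* overlap between the cell types.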

How the data were processed

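RNA of sorted BM ECs was turned into cDNA with a low-input kit that does not mark strand. STAR (alignment), htseq-count (reads per gene) and edgeR 3.12.0 (TMM scaling) were used by the authors, who deposited log2 RPKM of 17232 genes for 9 libraries. The submitters' notes name mm9, but listed positions overlapped the same identifier in the GRCm38 annotation for 99.98% of 17087 genes, and positions are given on that build. Reads behind the deposited log2 values were recovered from the value of a gene without reads, and 155085 of 155088 values came out whole within 0.01 reads (99.998%). Depth bounds counting error alone, since the kit has no molecular identifiers.

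Values were turned into RPKM and tested as log2(RPKM + 1) with limma 3.58.1 in R 4.3.3, with a trend, all 3 groups in 1 fit and no block, on the 16364 genes that reached 0.1 RPKM in 3 or more libraries. P values were adjusted by Benjamini-Hochberg over all tested genes and called under 0.05. The exact permutation tests are two-sided. Python 3.11.15 was used for the rest.

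The 9 genes and the lists were chosen with earlier results of these data known. The text names those 9, genes that overlap them (not all are reported here), up to 6 called genes of each list and the 3 genes most like each by Pearson correlation, among tested genes with a mean of at least 10 RPKM in a group. *Mmp8*, *Mmp9*, *Lrp1* and the markers were named after their values were seen. Alternatives were another pseudocount, other filters, other scalings, weights per library, only the groups compared, a replicate block, only libraries 3 and 4, voom on recovered reads and each library left out. The file holds no columns of other samples.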

Additional observations from a re-analysis of the deposited data

Results flagged for a closer look

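*Adamts5* in Nestin-GFPdim AEC library 3 was at 23.16 RPKM, far above the other 5 AEC libraries, which lay at 0.643 to 1.72 RPKM, by Dixon's test of the highest of 6 values. The same library had the highest sinusoidal marker sum of the AEC libraries (1015 RPKM), and the part of this in the *Adamts5* level was not tested.

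*Timp2* in Nestin-GFPdim AEC library 4 was at 168.3 RPKM by the same test, against 23.2 to 47.2 RPKM in the other AEC libraries. The same library had the highest erythroid marker sum (13780 RPKM), and the part of this in the *Timp2* level was not tested. Chance gives such a mark in about 1 in 20 groups, and 9 genes were looked at.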

How the results depend on the processing

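For AECs against SECs, 2 of the 9 genes were called, and 5 with a replicate block, which added *Adamts4* (adjusted p = 0.018), *Mmp14* (0.0235) and *Timp1* (0.0296), 3 with weights per library, which added *Mmp14*, 1 by voom, and 1 to 2 with each library left out. For Nestin-GFPbright AECs against SECs, 2 were called, 5 with the block, which added the same genes (adjusted p = 0.0182, 0.011 and 0.029), 3 with weights, 1 by voom, and 1 to 2 with each library left out, where *Mmp14* took the place of *Mmp2* without bright library 3. For Nestin-GFPdim AECs against SECs, 1 was called, 0 in a fit of only the groups compared, 0 with only libraries 3 and 4, and 0 to 1 with each library left out. Over all tested genes, 807 were called for AECs against SECs, 1717 with weights per library, 1333 with the block and 262 to 968 with each library left out. For bright AECs against SECs these counts were 750, 2065, 1391 and 277 to 882, and for dim AECs 319, 513, 644 and 64 to 417, beside 192 in a fit of only the groups compared, 172 with only libraries 3 and 4 and 137 by voom. Between bright and dim AECs 0 were called, 1 with weights or with a filter of 1 RPKM, 3 with the block and 0 to 1 with each library left out, none of them among the 9. The numbers were not taken to pair the libraries, because the deviations of 1 of 9 same-numbered pairs correlated at -0.212, although the other 8 reached 0.122 to 0.784. Of 9 libraries, 5 were closest to their own number. The call of *Adamts5* in AECs held under all 18 alternatives, and that of *Mmp2* under 12, with adjusted p = 0.087 by voom. Of the other called genes, *Cav1* and *Bcan* held under all 18, *Plat* and *Papln* under 16, *Bgn* under 15, *Timp4* and *Nid2* under 12, *Pcsk5* under 11 and *Adam9* under 7. Differences turned sign for *Timp3* in dim AECs against SECs with only libraries 3 and 4 (0.199), and in bright against dim AECs for *Adamts1* with weights per library (0.615) and voom (0.112) and for *Adamts4* with weights (0.171). With each library left out, they also turned sign for these genes, none of which was called there. *Adamts1* ranged from -0.585 to 1.01 in AECs against SECs, -0.622 to 1.66 in bright AECs, -0.744 to 1.66 in dim AECs and -1.37 to 1.3 between both fractions. *Adamts4* ranged from -2.5 to 0.135 in bright AECs, -2.16 to 0.185 in dim AECs and -1.55 to 1.16 between fractions. *Adamts9* ranged from -0.066 to 0.641 in bright AECs and -0.603 to 0.118 between fractions, and *Timp3* from -0.704 to 0.416 in dim AECs. Between fractions, *Timp1* ranged from -0.8 to 0.0107 and *Timp2* from -1.12 to 0.234. The cause of these changes was not tested.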
